A study of Homo sapiens with 27 samples.

Results

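The genes described here are 7 matrix metalloproteinases (MMP1, MMP2, MMP3, MMP7, MMP9, MMP10 and MMP14) and 3 tissue inhibitors of metalloproteinases (TIMP1, TIMP2 and TIMP3). They were chosen by gene symbol. The 10 genes are read by 20 of the 54675 probe sets of the Human Genome U133 Plus 2.0 array. A filter on variation across all arrays left 16 of these probe sets, which cover 9 of the genes, and MMP9 did not pass it. The array was hybridised with RNA of PC-3 cells, a prostate cancer line, SK-OV-3 cells, an ovarian cancer line, and WM793B cells, a melanoma line. Each line gave 3 control arrays (72 h at 21% oxygen), 3 arrays of chronic hypoxia (72 h at 1% oxygen) and 3 arrays of cycling hypoxia. In cycling hypoxia, stays of 4 h or 12 h at 1% oxygen alternated with stays of 4 h at 21% oxygen, and a stay at 21% oxygen came last before the cells were collected. The 3 arrays of a group are labelled as biological replicas. The media differed between the lines, and WM793B cells received less serum than the other lines together with insulin, so that the line and its medium cannot be told apart in a comparison of lines.

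Matrix metalloproteinases are zinc-dependent enzymes that cleave collagens, laminin and other proteins of the extracellular matrix. They are made as inactive proenzymes, and most are secreted and then activated by other proteinases, whereas MMP14 sits in the cell membrane. TIMP proteins bind the active site and block it, and TIMP2 also takes part in the activation of the MMP2 proenzyme by MMP14. In tumours these enzymes are known for their part in invasion and in the formation of vessels. The arrays measure mRNA only, so that neither the secreted protein nor its activity was measured.

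Values are log2 expression values made by GC-RMA, which corrects each probe for background according to its sequence. The scale starts at 2.28, and a probe set with all arrays of a group at or below 5 is called at the noise level. This level takes its number from a noise estimate in the study's text, which does not state its scale. It was applied to log2 values as a setting and is not a measured limit of detection, and 66.0% to 67.7% of the probe sets of an array lay at or below it. A fold change against such a group is given as a lower bound. Of the 90 combinations of 10 genes and 9 groups 38 lay at the noise level, and with the level at the log2 of 5, an alternative chosen after seeing the data, 9 did. A gene was read by the brightest of its filtered probe sets, and a change was called at an adjusted p under 0.05 in limma, fitted within each line over 19800 probe sets. Because each array reads a whole culture, fewer cells with the mRNA and less mRNA per cell cannot be told apart. Within every group the replicate arrays correlated with r of at least 0.984 over the 19800 filtered probe sets. All 4 epithelial markers lay above the noise level in both carcinoma lines, and 0 of the 4 did so in WM793B cells. HOXB13 marked PC-3 cells, PAX8 SK-OV-3 cells and SOX10 WM793B cells, but KLK3 lay at the noise level in PC-3 cells, MUC16 and WT1 in SK-OV-3 cells, and MLANA, PMEL and TYR in WM793B cells. Some markers stood in lines they do not name. MITF, a gene of the melanocyte lineage, averaged 9.35 in SK-OV-3 and 7.62 in PC-3 cells against 8.41 in WM793B cells, WT1 averaged 6.39 in WM793B and 5.51 in PC-3 cells, and PECAM1, an endothelial gene, averaged 6.03 in PC-3 cells.

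The members changed most in SK-OV-3 cells. There, MMP1, MMP2, MMP7, MMP10, TIMP1 and TIMP3 rose under chronic hypoxia and also under cycling hypoxia. They are 4 of the 6 metalloproteinases tested and 2 of the 3 inhibitors. Of all 10021 genes, 24.2% rose under chronic and 19.2% under cycling hypoxia in these cells. The cycling rise of TIMP3 was called on its brightest probe set alone. In PC-3 cells MMP1 fell while MMP14 and TIMP1 rose under chronic hypoxia, by smaller amounts. In WM793B cells, in which MMP1, MMP2 and TIMP3 already stood far above the noise level in control cultures, the change that reached 2-fold above the noise level was a rise of TIMP3. It reached 2-fold on the probe set read for the gene and not on its others. Under cycling hypoxia it was also called on that probe set alone.

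**Figure D1:**
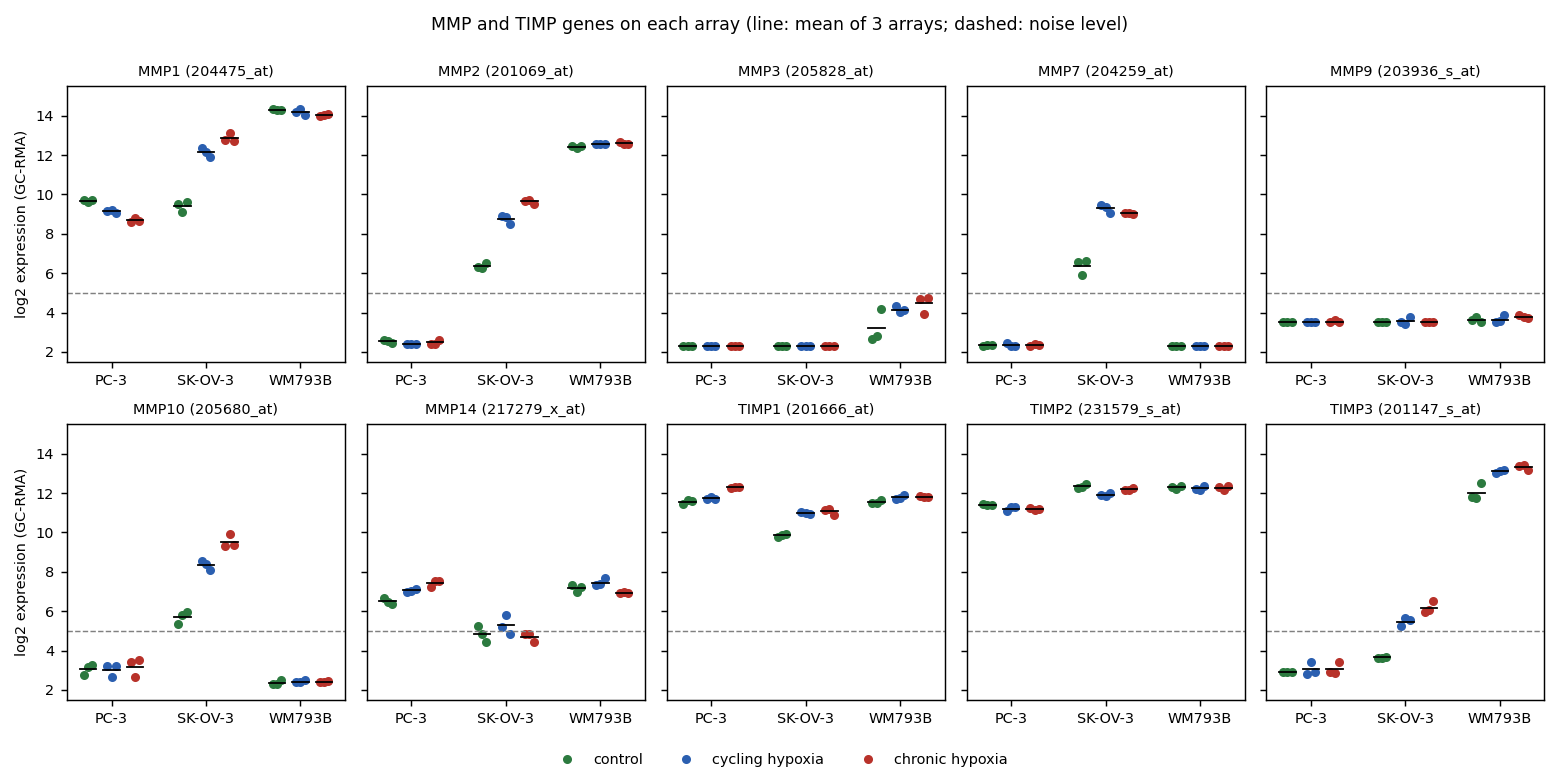
Log2 expression (GC-RMA, vertical axis) of the 10 genes on each of the 27 arrays, grouped by cell line and coloured by culture condition; points are arrays, black lines the means of 3 arrays and the dashed line the noise level of 5. In SK-OV-3 cells the hypoxic arrays of MMP1, MMP2, MMP7, MMP10, TIMP1 and TIMP3 lie above all control arrays, whereas MMP9 stays at 3.88 or lower on every array. Heights of different genes should not be compared, since each probe set has its own response.

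MMP1 encodes interstitial collagenase, which cuts fibrillar collagens. In SK-OV-3 cells its probe set 204475_at read 9.52, 9.10 and 9.63 on the control arrays, 12.38, 12.17 and 11.91 under cycling hypoxia and 12.77, 13.10 and 12.69 under chronic hypoxia. The 3 groups did not overlap, with the control arrays lowest and the chronic arrays highest. The rise was 3.44 on the log2 scale (SE 0.19, n = 3 against 3, 10.8-fold) under chronic hypoxia, with an adjusted p of 1.52e-05 in limma. Under cycling hypoxia it was 2.74 (SE 0.19, 6.67-fold, adjusted p = 9.35e-05 in limma). In PC-3 cells MMP1 moved the other way. The control arrays read 9.74, 9.62 and 9.71, the cycling arrays 9.17, 9.19 and 9.05 and the chronic arrays 8.61, 8.78 and 8.67. Again the groups did not overlap, but here the chronic arrays were lowest. MMP1 fell by 1.00 on the log2 scale (SE 0.06) under chronic hypoxia, a 2.00-fold change that lies just short of a full doubling before rounding, and by 0.55 under cycling hypoxia. The adjusted p in limma was 8.97e-06 and 0.000338. In WM793B cells the level was high in all groups, at 14.34, 14.27 and 14.29 on the control arrays, 14.18, 14.32 and 14.03 under cycling hypoxia and 13.97, 14.04 and 14.11 under chronic hypoxia. The chronic arrays lay below the control arrays by 0.26 (SE 0.08), with an adjusted p of 0.0386 in limma that rose as far as 0.114 when single arrays were left out. The cycling arrays overlapped the control arrays.

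In control cultures MMP1 was 4.61 log2 units higher in WM793B than in PC-3 cells, and SK-OV-3 and PC-3 cells differed by less than the test could call (-0.27, 95% interval -0.55 to 0.00, adjusted p = 0.065 in limma over all 27 arrays). Under chronic hypoxia the response in SK-OV-3 cells exceeded that in PC-3 cells by 4.44 log2 units (SE 0.19, adjusted p = 3.92e-14) and that in WM793B cells by 3.70 (adjusted p = 1.00e-12 in limma). PC-3 and WM793B cells also differed from each other, by 0.74 (adjusted p = 0.00308), so that the fall was deeper in PC-3 cells.

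MMP2 and MMP9 encode the gelatinases, which degrade denatured collagen and the collagen of basement membranes. MMP2 (201069_at) read 6.33, 6.27 and 6.50 in SK-OV-3 control cells, 8.92, 8.87 and 8.48 under cycling hypoxia and 9.68, 9.73 and 9.53 under chronic hypoxia. The 3 groups were separate and stood in the same order as for MMP1. The rise under chronic hypoxia was 3.28 (SE 0.13, 9.69-fold, adjusted p = 4.13e-06 in limma), and that under cycling hypoxia was 2.39 (SE 0.13, 5.24-fold, adjusted p = 3.92e-05). In PC-3 cells MMP2 lay at the noise level on all 9 arrays, between 2.42 and 2.61. In WM793B cells it lay between 12.34 and 12.69 on all arrays. The chronic arrays there read 12.69, 12.54 and 12.56 against 12.45, 12.34 and 12.47 in control cells, a small but separate shift of 0.18 (SE 0.06, adjusted p = 0.0425 in limma). That call was lost when any 1 of 8 of the 9 WM793B arrays was left out, with adjusted p up to 0.128. The control level in WM793B cells was 6.05 log2 units above that of SK-OV-3 cells (adjusted p = 1.91e-23 in limma), and the chronic arrays of SK-OV-3 cells remained below every WM793B array. The other 2 probe sets of MMP2 lay at the noise level in every group and were not tested. MMP9 (203936_s_at) read between 3.41 and 3.88 over all 27 arrays, at the noise level in each group, so that no MMP9 change could be measured here.

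MMP3 and MMP10 encode stromelysins and MMP7 encodes matrilysin, enzymes that cleave a broad range of matrix proteins and other proenzymes. MMP10 (205680_at) showed the widest change of the 9 tested members. It read 5.37, 5.80 and 5.95 in SK-OV-3 control cells, 8.54, 8.38 and 8.09 under cycling hypoxia and 9.33, 9.95 and 9.34 under chronic hypoxia, in 3 separate groups. The rise was 3.83 (SE 0.23, 14.3-fold, adjusted p = 2.17e-05 in limma) under chronic hypoxia and 2.63 (SE 0.23, 6.19-fold, adjusted p = 0.000237) under cycling hypoxia. MMP7 (204259_at) read 6.58, 5.93 and 6.61 in SK-OV-3 control cells, 9.45, 9.38 and 9.05 under cycling hypoxia and 9.06, 9.08 and 8.99 under chronic hypoxia. Both hypoxic groups lay above the control group and overlapped each other. MMP7 rose by 2.67 (SE 0.19, 6.37-fold, adjusted p = 5.46e-05 in limma) under chronic hypoxia and by 2.92 (SE 0.19, 7.55-fold, adjusted p = 8.68e-05) under cycling hypoxia. Both genes lay at the noise level in WM793B and PC-3 cells in all groups, and none of these comparisons was called.

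MMP3 (205828_at) lay at or near the bottom of the scale in both carcinoma lines. In WM793B cells it read 2.66, 2.81 and 4.17 on the control arrays, 4.31, 4.01 and 4.11 under cycling hypoxia and 4.68, 3.94 and 4.76 under chronic hypoxia. All these values lie at the noise level, and the chronic and control groups overlapped. The test still passed (1.25, SE 0.42, adjusted p = 0.0498 in limma), and no fold change is given. The result was lost, among others, without chronic replicate 1 (adjusted p = 0.132) and without control replicate 1 (adjusted p = 0.147).

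MMP7 and MMP10 lie in the metalloproteinase gene cluster of chromosome 11, with MMP1 and MMP3, and their promoters are shown because both genes rose together in SK-OV-3 cells. RefSeq promoter sequences of build GRCh38.p14 were at hand for 5 of the 10 members (MMP7, MMP10, MMP14, TIMP1 and TIMP3). The 250 bases before the start of MMP7 are chr11:102530748-102530997 on the minus strand, and those of MMP10 are chr11:102780629-102780878 on the minus strand. Each is written 5′ to 3′ in the direction of the gene and ends just before the start. Capitals mark the letters TGANTCA, where N was allowed to be any base, and the letters ACGTG or GCGTG, the core of a hypoxia response element. TGANTCA is a loosened form of an AP-1 element, which binds dimers of FOS and JUN proteins.
MMP7: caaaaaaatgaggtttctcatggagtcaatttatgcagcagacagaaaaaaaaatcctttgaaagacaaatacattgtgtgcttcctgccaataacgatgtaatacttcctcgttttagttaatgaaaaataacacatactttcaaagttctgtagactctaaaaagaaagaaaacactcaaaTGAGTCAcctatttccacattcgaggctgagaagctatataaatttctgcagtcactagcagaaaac
MMP10: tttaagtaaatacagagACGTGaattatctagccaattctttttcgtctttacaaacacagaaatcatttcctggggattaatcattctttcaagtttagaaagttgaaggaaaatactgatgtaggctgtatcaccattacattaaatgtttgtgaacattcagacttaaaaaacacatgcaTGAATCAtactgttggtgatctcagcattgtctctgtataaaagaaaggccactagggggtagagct

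The loosened AP-1 form stood in both promoters at the same distance, from 67 to 61 bases before the start. It read TGAGTCA in MMP7 and TGAATCA in MMP10, which differ at the open base. On both strands together, 6.57% of the 35116 promoter sequences of this length held TGANTCA. The letters TATAAA followed from 30 to 25 bases before the start in MMP7 and from 31 to 26 in MMP10, and 6.80% of all promoters held them. ACGTG stood once in MMP10, from 233 to 229 bases before the start, and neither ACGTG nor GCGTG stood in the MMP7 window. These letters are common, since 43.2% of all promoters held one of them. The letters AGGAAG, the form of an ETS element, stood on the minus strand of MMP7 from 169 to 164 and from 145 to 140 bases before the start and were not found in the MMP10 window, and 28.7% of all promoters held them. A match gives the letters of the window and was not set against binding of any factor.

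MMP14 encodes a membrane-bound metalloproteinase that cleaves collagen and activates the MMP2 proenzyme. In PC-3 cells 217279_x_at read 6.69, 6.47 and 6.34 on the control arrays, 7.0, 7.05 and 7.13 under cycling hypoxia and 7.25, 7.52 and 7.53 under chronic hypoxia. The groups were separate, with the chronic arrays highest. The rise was 0.93 (SE 0.11, 1.91-fold, adjusted p = 0.00025 in limma) under chronic hypoxia and 0.56 (SE 0.11, adjusted p = 0.00549) under cycling hypoxia. The other 3 probe sets of MMP14 gave larger rises under chronic hypoxia, of 1.13 (160020_at), 1.41 (202827_s_at) and 1.29 (202828_s_at), or 2.19-fold to 2.66-fold. Under cycling hypoxia they gave 0.57, 1.04 and 0.99. All 4 probe sets were called in both comparisons, and the size depended on the probe set read.

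In SK-OV-3 cells MMP14 lay close to the noise level. On 217279_x_at the control arrays read 5.27, 4.82 and 4.43, the cycling arrays 5.22, 5.79 and 4.82 and the chronic arrays 4.82, 4.82 and 4.42. The groups overlapped, none of the comparisons was called, and the other probe sets lay at the noise level in all 3 groups. In WM793B cells the control arrays read 7.31, 6.98 and 7.23, the cycling arrays 7.33, 7.36 and 7.68 and the chronic arrays 6.91, 6.96 and 6.91. Neither hypoxic group was called against control. The cycling arrays lay above the chronic arrays by 0.52 (SE 0.12, adjusted p = 0.0278 in limma), a difference that the other 3 probe sets gave as 0.20, 0.29 and 0.02 with no call.

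TIMP1 encodes a secreted inhibitor of most metalloproteinases. It was above the noise level on every array, and its probe set 201666_at read 9.77, 9.86 and 9.92 in SK-OV-3 control cells, 11.03, 11.01 and 10.94 under cycling hypoxia and 11.12, 11.18 and 10.91 under chronic hypoxia. Both hypoxic groups lay above all control arrays and overlapped each other. The rises were 1.22 (SE 0.08, 2.33-fold, adjusted p = 3.3e-05 in limma) under chronic hypoxia and 1.14 (SE 0.08, 2.21-fold, adjusted p = 0.0001) under cycling hypoxia. In PC-3 cells the control arrays read 11.43, 11.64 and 11.62, the cycling arrays 11.68, 11.81 and 11.73 and the chronic arrays 12.28, 12.30 and 12.30. Only the chronic group stood well apart, with a rise of 0.73 (SE 0.06, 1.65-fold, adjusted p = 4.53e-05 in limma), while cycling hypoxia gave 0.17 and missed the threshold (95% interval 0.03 to 0.32, adjusted p = 0.0566). In WM793B cells the control arrays read 11.48, 11.49 and 11.63, the cycling arrays 11.73, 11.74 and 11.93 and the chronic arrays 11.85, 11.80 and 11.79. Both hypoxic groups lay above the control arrays, by 0.28 (adjusted p = 0.0174) and 0.26 (adjusted p = 0.0441 in limma). The WM793B call under chronic hypoxia was lost without chronic replicate 1, control replicate 1 or control replicate 2, at an adjusted p up to 0.0607 in limma. The call under cycling hypoxia was lost when any single WM793B array but control replicate 3 was left out, at an adjusted p up to 0.131.

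The control level of TIMP1 was lower in SK-OV-3 cells than in the other lines, by 1.71 against PC-3 and by 1.68 against WM793B cells, and PC-3 and WM793B cells differed by 0.03 (adjusted p = 0.769 in limma). The TIMP1 promoter is shown because TIMP1 is the member that was called under chronic hypoxia with a rise in all 3 lines. It is chrX:47582186-47582435 on the plus strand of GRCh38.p14, written as above.
TIMP1: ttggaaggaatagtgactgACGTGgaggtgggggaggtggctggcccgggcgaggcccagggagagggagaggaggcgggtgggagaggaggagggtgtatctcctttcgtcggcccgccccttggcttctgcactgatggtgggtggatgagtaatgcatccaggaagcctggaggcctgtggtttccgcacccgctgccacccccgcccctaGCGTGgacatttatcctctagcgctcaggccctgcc

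ACGTG stood from 231 to 227 bases before the start of TIMP1 and GCGTG from 36 to 32, whereas TGANTCA was not found in this window. AGGAAG stood once, from 87 to 82 bases before the start. The MMP14 window held the core once, on the minus strand, and the TIMP3 window held GCGTG once, and neither held AGGAAG.

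TIMP2 encodes an inhibitor that also bridges MMP14 and the MMP2 proenzyme. Its shifts were small. In SK-OV-3 cells 231579_s_at read 12.26, 12.32 and 12.44 on the control arrays, 11.91, 11.84 and 12.02 under cycling hypoxia and 12.18, 12.14 and 12.24 under chronic hypoxia. The cycling arrays were the lowest and overlapped neither other group. Under cycling hypoxia TIMP2 fell by 0.42 (SE 0.07, adjusted p = 0.00347 in limma), and chronic hypoxia gave -0.16 with no call (adjusted p = 0.106). In PC-3 cells it read 11.44, 11.42 and 11.38 on the control arrays, 11.08, 11.28 and 11.28 under cycling and 11.22, 11.16 and 11.21 under chronic hypoxia. Both hypoxic groups lay below the control arrays, by 0.22 under chronic (adjusted p = 0.013) and 0.20 under cycling hypoxia (adjusted p = 0.0253 in limma). A second probe set, 224560_at, gave the same directions. The probe set 203167_at did not pass the filter and was not tested, and in PC-3 cells it went the other way, from 7.16 to 7.36 on the control arrays to between 7.67 and 7.70 under chronic hypoxia. The probe sets of TIMP2 therefore did not give 1 direction in PC-3 cells. In SK-OV-3 cells all 3 probe sets placed the cycling arrays lowest. None of the TIMP2 comparisons was called in WM793B cells.

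TIMP3 encodes an inhibitor that stays bound to the matrix and also blocks several ADAM proteinases. In WM793B cells 201147_s_at read 11.82, 11.73 and 12.52 on the control arrays, 13.01, 13.13 and 13.18 under cycling hypoxia and 13.38, 13.41 and 13.19 under chronic hypoxia. Every hypoxic array lay above every control array, and control replicate 3 lay nearest to them. The rise was 1.31 (SE 0.20, 2.48-fold, adjusted p = 0.00231 in limma) under chronic hypoxia and 1.09 (SE 0.20, 2.13-fold, adjusted p = 0.0132) under cycling hypoxia. On the other 3 probe sets the rise under chronic hypoxia was 0.83, 0.82 and 0.61, and the last, of 201150_s_at, missed the threshold (adjusted p = 0.0859). Under cycling hypoxia these 3 probe sets were not called. In SK-OV-3 cells 201147_s_at read 3.63, 3.63 and 3.68 on the control arrays, at the noise level, 5.24, 5.64 and 5.54 under cycling hypoxia and 5.98, 6.04 and 6.53 under chronic hypoxia. The groups were separate, and TIMP3 was at least 2.27-fold higher under chronic hypoxia (adjusted p = 3.11e-05 in limma) and at least 1.39-fold higher under cycling hypoxia (adjusted p = 0.000279). These bounds rest on the noise level set at 5. The fitted folds, which also hold with the level at the log2 of 5, were 5.80 and 3.54. On 201150_s_at only the chronic arrays rose above the noise level, by at least 1.24-fold (adjusted p = 0.00011), and cycling hypoxia gave 0.30 with no call (adjusted p = 0.383). The remaining 2 probe sets stayed at the noise level in SK-OV-3 cells, and all 4 did in PC-3 cells. The rise of TIMP3 under cycling hypoxia in SK-OV-3 cells thus rests on 1 probe set.

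**Figure D2:**
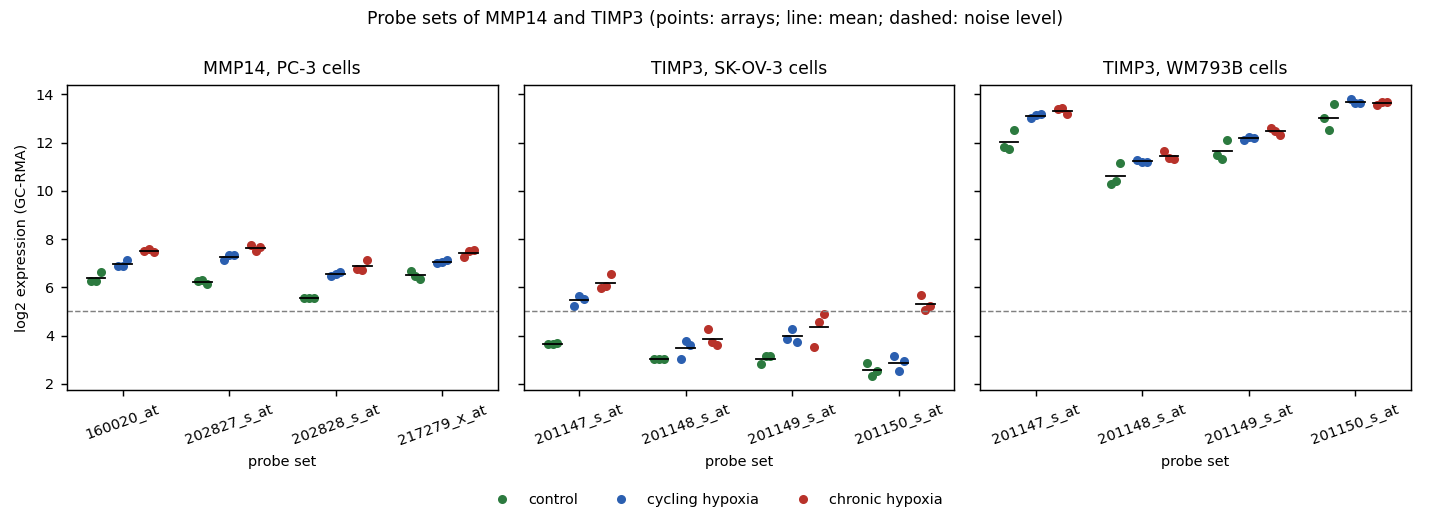
Log2 expression (GC-RMA, vertical axis) of each probe set (horizontal axis) of MMP14 in PC-3 cells and of TIMP3 in SK-OV-3 and WM793B cells; points are arrays, black lines means of 3 arrays and the dashed line the noise level of 5. In PC-3 cells the chronic arrays lie above the control arrays on all 4 MMP14 probe sets, and 1 of the 4 TIMP3 probe sets lies above the noise level under cycling hypoxia in SK-OV-3 cells.

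Counted over the 9 tested genes, chronic hypoxia gave 6 calls in SK-OV-3 cells, all of them rises, where 49.2% of all 10021 genes were called and 24.2% rose. Each of the 6 reached 2-fold in the fit, against 16.3% of all genes, with TIMP3 measured against a control group at the noise level. The median difference of the 9 genes was 2.54, the fitted value of TIMP3 itself. With TIMP3 at its lower bound it was 1.22, and that of all genes was 0.00. Cycling hypoxia gave 7 calls in SK-OV-3 cells, 6 rises and the fall of TIMP2, against 35.1% of all genes called and 19.2% higher, and the same 6 genes reached 2-fold in the fit, against 9.81%. With TIMP3 at its lower bound of 1.39-fold, 5 genes did. The median of the 9 genes was 1.82 as fitted and 1.14 with TIMP3 at its bound, and that of all genes was 0.01. The 2 comparisons share their control arrays.

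In PC-3 cells 4 of 9 genes were called under chronic hypoxia (MMP14 and TIMP1 up, MMP1 and TIMP2 down), against 63.7% of all genes. The other tested genes, MMP2, MMP3, MMP7, MMP10 and TIMP3, lay at the noise level in every PC-3 group. The share therefore includes genes with little signal to test there. Under cycling hypoxia 3 of 9 were called, against 48.2% of all genes. On the probe sets read, 0 of 9 reached 2-fold in either comparison, against 22.2% and 7.83% of all genes. That count depends on the probe set. Under chronic hypoxia the other probe sets of MMP14 rose more than 2-fold, and MMP1 fell just short of 2-fold. Its probe set 202827_s_at also took MMP14 above 2-fold under cycling hypoxia. At an unadjusted p under 0.05 limma gave 4 of 9 in both comparisons. In WM793B cells 5 of 9 were called under chronic hypoxia, against 41.7% of all genes, and 2 of these 5 reached 2-fold, against 12.3% (TIMP3, and MMP3 at the noise level). Under cycling hypoxia 2 of 9 were called (TIMP1 and TIMP3), against 18.8% of all genes called and 9.57% higher. TIMP3 reached 2-fold, against 3.3% of all genes. In both WM793B comparisons TIMP3 reached 2-fold on the probe set read and not on its others. The calls of MMP1, MMP2 and MMP3 in WM793B cells were lost together under other settings, among them a fit without the filter, in which 2 of 9 genes remained called.

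**Figure D3:**
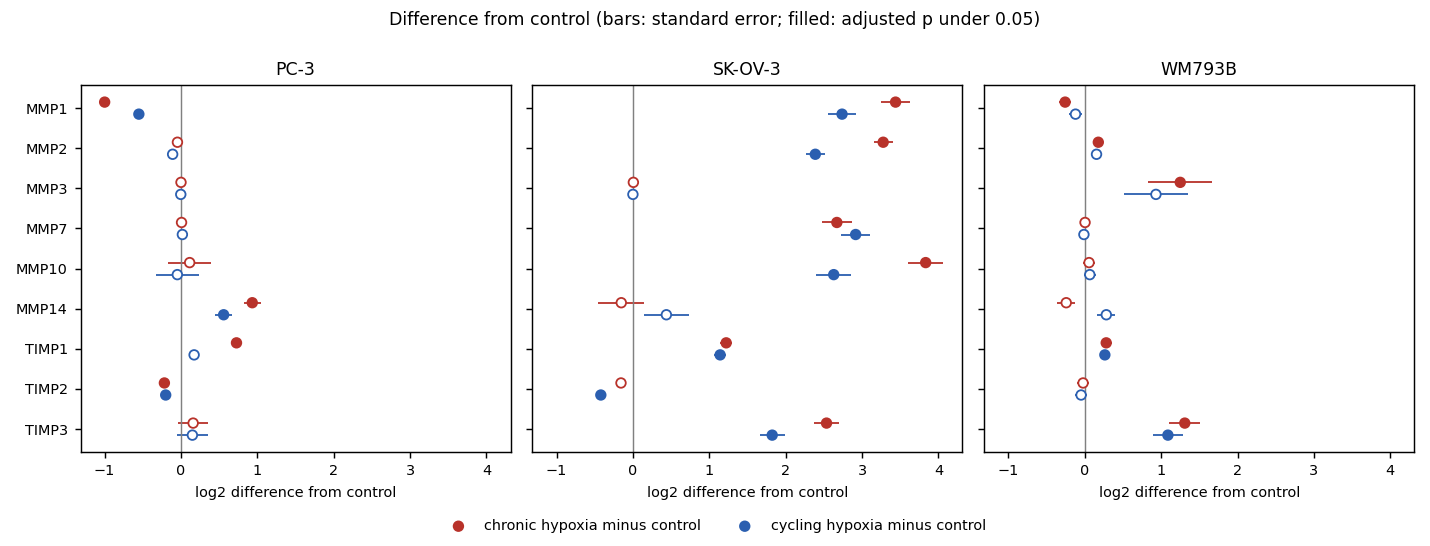
Log2 difference from control (horizontal axis, 3 arrays against 3) of the 9 tested genes in each cell line under chronic hypoxia (red) and cycling hypoxia (blue); bars are standard errors from limma and filled points have an adjusted p under 0.05. The differences in SK-OV-3 cells reach 3.83, against a range from -0.9997 to 0.93 in PC-3 cells; the filled MMP3 point of WM793B cells is of groups at the noise level.

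The response differed between the lines for most members, some of which were read against lines at the noise level. In a fit over all 27 arrays the response to chronic hypoxia differed between lines for 8 of 9 genes, all but TIMP2, against 70.7% of all genes. For cycling hypoxia it differed for 8 of 9 genes, all but MMP14, against 52.1%. MMP7 and MMP10 lay at the noise level in all PC-3 and WM793B groups. MMP2 and TIMP3 did so in all PC-3 groups and MMP3 in all groups of each line. For these genes the tests set a response against groups at the noise level and do not compare sizes of response there. MMP14 on the probe sets 160020_at, 202827_s_at and 202828_s_at did pass for cycling hypoxia (adjusted p = 0.0382, 7.19e-05 and 0.00764 in limma). Under chronic hypoxia the rise of MMP14 in PC-3 cells exceeded the difference in SK-OV-3 cells, where every chronic array lay at the noise level, by 1.09 (adjusted p = 0.0028) and that in WM793B cells by 1.18 (adjusted p = 0.0022). The rise of TIMP1 in SK-OV-3 cells exceeded that in PC-3 cells by 0.49 (adjusted p = 0.00209) and that in WM793B cells by 0.94 (adjusted p = 2.22e-06). The control level differed between the lines for 9 of 9 genes, against 96.8% of all genes. The filter kept probe sets that vary over the arrays of all lines, which favours such differences, so that this count does not set the members apart. TIMP2 was not called different between SK-OV-3 and WM793B control cells (difference 0.05, SE 0.09, adjusted p = 0.589) and was lower in PC-3 cells, by 0.93 against SK-OV-3 cells.

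Cycling and chronic hypoxia were then compared directly. In SK-OV-3 cells 5 of 9 genes were lower under cycling than under chronic hypoxia, against 34.2% of genes called in either direction and 15.8% called lower. MMP10 was lower by 1.20 (SE 0.23, adjusted p = 0.00728 in limma), MMP2 by 0.89 (adjusted p = 0.00233), TIMP3 by 0.71 (adjusted p = 0.0158), MMP1 by 0.70 (adjusted p = 0.0277) and TIMP2 by 0.26 (adjusted p = 0.0245). The calls of MMP1 and TIMP2 were each lost when any 1 of 4 single arrays was left out, among them cycling replicate 2 and chronic replicate 1, without either of which 3 genes were called. For MMP7 and TIMP1 the difference was 0.25 (95% interval -0.21 to 0.70) and -0.08 (95% interval -0.27 to 0.11), with no call. In PC-3 cells 3 of 9 were called, against 42.4% of all genes. The 9 include MMP2, MMP3, MMP7, MMP10 and TIMP3, which lay at the noise level in every PC-3 group. MMP1 was higher under cycling hypoxia by 0.45 (adjusted p = 0.00142), TIMP1 lower by 0.55 (adjusted p = 0.00068) and MMP14 lower by 0.37 (adjusted p = 0.0339 in limma), the last call being lost when any 1 of 6 arrays was left out. In WM793B cells MMP14 was the 1 gene called, against 16.1% of all genes called and 9.7% higher, and without cycling replicate 1 it was not (adjusted p = 0.0519).

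Genes known to be induced by hypoxia-inducible factor were set beside the members in SK-OV-3 cells. Of 6 such genes tested, 6 rose under chronic hypoxia, where 24.2% of all genes rose, and 5 under cycling hypoxia, where 19.2% did. All 6 were lower under cycling than under chronic hypoxia, against 15.8% of all genes. The study also lists these genes among those that chronic hypoxia regulated in all of its cell lines. Their rises under chronic hypoxia are therefore not an independent result of these data. ADM, which encodes adrenomedullin, averaged 8.27 in control cells, 9.58 under cycling and 12.40 under chronic hypoxia, and ANKRD37 averaged 4.89, 5.90 and 9.47. The median difference of the 6 genes from control was 3.26 under chronic and 1.11 under cycling hypoxia, and the direct difference between the conditions had a median of -2.52. For the 9 members these medians were 2.54, 1.82 and -0.26 as fitted, and 1.22, 1.14 and -0.26 with members measured against a group at the noise level at their bound. SLC2A1, a glucose transporter, rose by 2.68 under chronic hypoxia and gave 0.23 under cycling hypoxia with no call (adjusted p = 0.0712 in limma). These comparisons share the control arrays, and the difference between the 2 sets of genes was not tested.

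**Figure D4:**
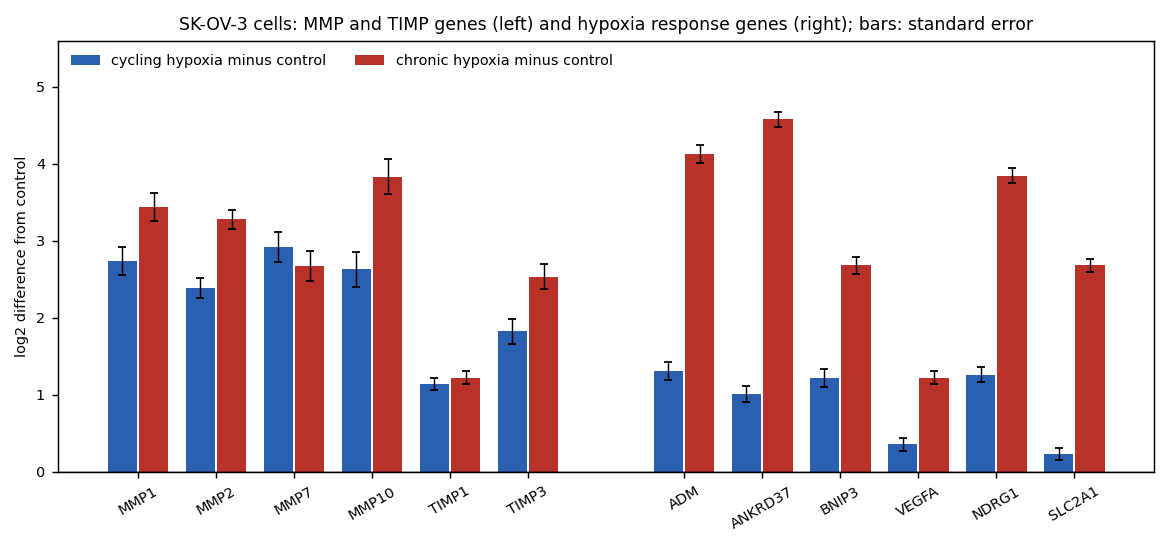
Log2 difference from control in SK-OV-3 cells (vertical axis) under cycling hypoxia (blue) and chronic hypoxia (red) of the 6 members that rose (left) and of 6 genes known to respond to hypoxia (right); bars start at 0, and error bars are standard errors from limma (3 arrays against 3). MMP7 gives 2.92 and 2.67 under the 2 conditions, ANKRD37 gives 1.01 and 4.58.

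Other genes of the pathway were read against the shares of all 10021 genes. Of these, 24.9% rose and 38.8% fell under chronic hypoxia in PC-3 cells, 24.2% and 25% in SK-OV-3 cells, and 17.8% and 23.9% in WM793B cells. Under cycling hypoxia 22.8% rose and 25.4% fell in PC-3 cells, 19.2% and 15.8% in SK-OV-3 cells, and 9.57% and 9.21% in WM793B cells. The activators, binding partners and further inhibitors of metalloproteinases formed a list of which 16 genes were tested. In SK-OV-3 cells 10 of the 16 rose and 1 fell under chronic hypoxia, and 9 rose and 1 fell under cycling hypoxia, with medians of 0.76 and 0.54, where 49.2% and 35.1% of all genes were called. PLAUR, the urokinase receptor that localises plasmin formation on the cell surface, rose by 3.11 (SE 0.15, 8.63-fold, adjusted p = 1.02e-05 in limma) under chronic hypoxia. THBS1, which encodes thrombospondin 1, rose by 3.22 (9.33-fold, adjusted p = 5.87e-06) under cycling hypoxia. LCN2, whose product binds MMP9, fell by 3.68 under chronic and 3.72 under cycling hypoxia. In PC-3 cells 8 of the 16 rose and 2 fell under chronic hypoxia, where 63.7% of all genes were called, with PLAU, which encodes urokinase, higher by 1.13 (adjusted p = 0.000104) under cycling hypoxia. In WM793B cells 4 rose and 5 fell under chronic hypoxia, where 41.7% of all genes were called, and LCN2 fell by 2.75 (adjusted p = 0.000932 in limma).

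Of the metalloproteinases outside the 10 genes, together with TIMP4, 7 of 17 were tested. In SK-OV-3 cells limma called 0 of 7 in each comparison, with 0, 1 and 0 at an unadjusted p under 0.05 for chronic against control, cycling against control and cycling against chronic hypoxia, where 49.2%, 35.1% and 34.2% of all genes were called. In PC-3 cells 1 rose and 1 fell under chronic hypoxia and 2 rose and 1 fell under cycling hypoxia, and in WM793B cells 0 rose and 1 fell under each. MMP16, a membrane-bound metalloproteinase, fell in PC-3 cells by 2.39 under chronic (5.25-fold, adjusted p = 7.29e-06) and by 1.37 under cycling hypoxia, and in WM793B cells by 1.80 and 0.97. MMP28 rose in PC-3 cells from the noise level, to at least 1.07-fold higher under chronic and at least 1.27-fold higher under cycling hypoxia. Among 15 tested ADAM and ADAMTS genes, relatives of the metalloproteinases, 6 rose and 0 fell under chronic hypoxia in PC-3 cells, with 6 at an unadjusted p under 0.05, a share below the 63.7% of all genes called there. ADAM8 rose there by 3.46 (11.02-fold, adjusted p = 4.55e-06 in limma). In SK-OV-3 cells 4 of the 15 rose and 3 fell under chronic hypoxia, against 49.2% of all genes called. In WM793B cells 0 of the 15 rose and 7 fell under chronic hypoxia, where 17.8% of all genes rose and 23.9% fell. At an unadjusted p under 0.05 limma gave 10 of the 15. ADAMTS9 was at least 2.29-fold lower.

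AP-1 and ETS transcription factors, for which binding elements are known in several metalloproteinase promoters, were also listed. Of 12 tested, 8 rose and 1 fell in SK-OV-3 cells under chronic hypoxia, and 9 rose and 0 fell under cycling hypoxia, with 11 at an unadjusted p under 0.05. Of all genes 49.2% and 35.1% were called in these comparisons. In PC-3 cells 9 rose and 2 fell under chronic hypoxia and 8 rose and 2 fell under cycling hypoxia, against 63.7% and 48.2% of all genes called. In WM793B cells 3 rose and 0 fell under chronic hypoxia, and 1 rose and 1 fell under cycling hypoxia, against 41.7% and 18.8%. FOS rose in SK-OV-3 cells by 2.18 (adjusted p = 0.00103 in limma) under chronic and by 2.75 (adjusted p = 0.00063) under cycling hypoxia, and in PC-3 cells by 1.88 and 2.10. FOS averaged 5.12 (SD 0.69) in PC-3 control cells, close to the noise level. Its higher hypoxic mean there, 7.22 under cycling hypoxia, lay below the mean of 8.61 in SK-OV-3 control cells. In the same comparisons with control, MMP1, MMP7 and MMP10 rose in SK-OV-3 cells. In PC-3 cells MMP1 fell, and MMP7 and MMP10 lay at the noise level. Whether FOS or the other listed factors act on these genes was not tested.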

How the data were processed

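Total RNA of 27 cultures was hybridised to 1-colour Affymetrix arrays. The authors processed the scans with GC-RMA (submitters' processing notes and the study's methods) and deposited log2 expression values, 1 table column per array. Signals or counts behind these values were not used, and the number of arrays limits the precision. Probe sets were named from the platform annotation: 41097 of 54675 carried 1 symbol, 1801 several and 11777 none, and those with several symbols were not named.

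Probe sets were kept where at least 20% of the arrays (at least 6) differed at least 1.5-fold from the probe set's median (19800 kept, 17314 with 1 symbol). limma (version 3.58.1, R 4.3.3; lmFit and eBayes) stood in for the random-variance test of the study's methods. Each line was fitted alone with its 9 arrays and 3 groups, and lines were compared in 1 fit over 27 arrays. P-values were adjusted by Benjamini-Hochberg over all filtered probe sets, and an adjusted p under 0.05 made a call. P-values weigh a difference between group means against the spread between replicate arrays, as moderated by limma. In simulated chronic hypoxia comparisons over 19800 probe sets, changes of 1 log2 unit were recovered in 90%, 81% and 77% of cases in PC-3, SK-OV-3 and WM793B cells. There, 100 probe sets changed by 1 log2 unit and 100 by 2, all with means above the noise level. In the data far more probe sets were called, and several members lay at the noise level. The shares therefore do not give the power of the tests of the members.

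All 10 members were named. Of each other list, the largest rise and fall per comparison could be named, beside all hypoxia genes and the 3 genes most like the 2 widest-changing members. The members and lists were chosen with earlier results of these data known. Other filters, scalings, probe sets, fits and left-out arrays were tried. Same-numbered replicates were not paired: 1, 1 and 4 of 9 pairs in PC-3, SK-OV-3 and WM793B cells correlated over 0.1. Promoter letters were searched on both strands of the 250 bases before each RefSeq start, except TATAAA, which was searched on the strand of the gene.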

Additional observations from a re-analysis of the deposited data

Results flagged for a closer look

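Responses that differed between the 3 cell lines are listed here, by limma's F-test of the interaction between line and condition over all 27 arrays. For chronic hypoxia the adjusted p was 3.77e-14 for MMP1, 3.32e-14 for MMP2, 2.26e-11 for MMP7 and 4.17e-10 for MMP10. These are the 4 metalloproteinases that rose in SK-OV-3 cells, and MMP1 is the 1 among them that fell in the other lines. It was 6.94e-07 for TIMP3, 4.97e-06 for TIMP1, 0.00141 for MMP14 and 0.00368 for MMP3, the last with all groups at the noise level. For cycling hypoxia it was 1.3e-11 for MMP1, 1.37e-11 for MMP2, 1.85e-11 for MMP7 and 3.06e-07 for MMP10. It was 2.31e-06 for TIMP1, 0.000138 for TIMP3, 0.0432 for TIMP2 and 0.0405 for MMP3. On the other 3 probe sets of TIMP3 the test for cycling hypoxia gave 0.128, 0.0632 and 0.157, so that the difference between lines was called on 1 of 4 probe sets. MMP7 and MMP10 lay at the noise level in PC-3 and WM793B cells, and MMP2 and TIMP3 in PC-3 cells. Their tests do not compare sizes of response there. Groups of 3 arrays are too small for a test of outlying arrays.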

How the results depend on the processing

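No call changed direction under any alternative. In SK-OV-3 cells the 6 rises kept their call against control under each alternative, apart from TIMP3 under cycling hypoxia read by its probe set with the largest variance (0.30, adjusted p = 0.383 in limma). Under that reading WM793B cells gave 1 call for cycling against control and 0 for cycling against chronic hypoxia. With a call that also needed 2-fold, PC-3 cells gave 0, 0 and 0 calls for chronic against control, cycling against control and cycling against chronic hypoxia, SK-OV-3 cells 1 for cycling against chronic, and WM793B cells 2, 1 and 0. A rule of an F-test over the 3 conditions of a line and 2-fold gave the same counts except 1 for chronic against control in WM793B cells. Without the variation filter, SK-OV-3 cells gave 3 for cycling against chronic, and WM793B cells 2, 1 and 0. For chronic against control in WM793B cells (5 calls) the count was 3 with a filter on dim probe sets, 3 in 1 fit over all arrays and 3 with a variance trend, and the fit over all arrays gave 0 for cycling against chronic. With each array centred on its median, WM793B cells gave 1 for cycling against control, the AP-1 and ETS list 1 there, and the other metalloproteinases 1 for cycling against control in SK-OV-3 cells and 1 for cycling against chronic in WM793B cells. Quantile normalization gave 1 activator for that last comparison. The cause of these shifts was not tested. With the noise level at the log2 of 5, chosen after seeing the data, the folds of TIMP3 in SK-OV-3 cells were 5.80 and 3.54 in place of bounds of 2.27 and 1.39.

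With the replicate number as a block, 3 of 9 genes were called for chronic against control in WM793B cells, and TIMP2 (cycling against control) and MMP14 (cycling against chronic) in PC-3 cells and MMP1 (cycling against chronic) in SK-OV-3 cells were not called. In WM793B cells 7 of 9 arrays, in SK-OV-3 cells 4 and in PC-3 cells 3 correlated best with their own number.

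When each array was left out in turn, the counts for the 3 comparisons ran from 4 to 4, 2 to 3 and 2 to 3 in PC-3 cells, from 6 to 6, 7 to 7 and 3 to 5 in SK-OV-3 cells, and from 1 to 4, 1 to 3 and 0 to 1 in WM793B cells. The lowest count of 1 for chronic against control came without chronic replicate 1 and without control replicates 1 or 2, and leaving out any array but control replicate 3 gave 3 or fewer. Any array but control replicate 3 also took cycling against control to 1, and cycling replicates 1 or 2 or any chronic replicate took cycling against chronic to 0. Differing responses between lines ran from 8 to 8 (chronic) and 6 to 8 (cycling), and control levels from 9 to 9.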

Other observations

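The genes whose levels ran most closely with the 2 widest-changing members were taken over all 27 arrays, after the mean of each line was subtracted. With MMP10, PSG9 had a Pearson r of 0.978, FXYD6 0.969 and MFAP5 0.967. With MMP1, CRYBG1 had 0.971, NT5E 0.960 and KCNK15 0.959. These values describe 27 arrays that share lines and conditions, and since MMP10 lay at the noise level in PC-3 and WM793B cells, its values there carry little signal.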
